A study of Mus musculus with 7 samples.

Results

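Monoubiquitination of histone H2B is a chromatin mark laid down on transcribed genes behind RNA polymerase II (Pol II). The 10 genes described here encode the enzymes that place it and the complex that recruits them. Rnf20 and Rnf40 form the ubiquitin ligase, Wac is its adaptor, and Ube2a and Ube2b are the conjugating enzymes that hand over the ubiquitin. Paf1, Ctr9, Cdc73, Leo1 and Rtf1 are subunits of the PAF1 complex, which travels with elongating Pol II and helps to bring the ligase to chromatin. Med23, a subunit of the Mediator complex, is known to bind the Rnf20 and Rnf40 ligase, and the mark in turn favours methylation of histone H3 by the COMPASS and Dot1l enzymes. The genes were taken by symbol as partners of Med23 in elongation, and all 10 were found among the 24346 genes of the table. All 10 passed the filter on low values.

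Primary neurospheres, which are floating cultures of neural stem cells and their progeny, were grown from the hippocampus of single C57/BL6 mice, and their total RNA was sequenced. Of the 7 libraries, 4 came from control littermates labelled wild type (mice WT_215, WT_116, WT_213, WT_220), which by the study's methods carried Med23 flox/+ or Med23 flox/flox without Cre. The other 3 came from Nestin-CreER:Med23 flox/flox mice, called Med23 CKO (mice KO_117, KO_214, KO_218). Tamoxifen, which activates CreER, was given to the mice of both groups (200 mg/kg, 5 days). The labels give an age of 2 months, and by the study's methods mice for such cultures received tamoxifen before that age. The Nestin promoter drives Cre in neural stem cells and also in endothelial cells, and the cultures were not sorted, so cells that kept Med23 can be present. The study's text gives fewer control samples for this experiment than the table holds, and all control libraries of the table were used. Below, the values of a gene are given in the order in which the mice are named here.

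The marker genes of other cell types differed widely between libraries of the same group. Summed over 12 microglia markers, FPKM (fragments per kilobase of transcript, scaled to library size) ran from 34.5 to 176 in control and from 36.0 to 585 in Med23 CKO, with the highest value in mouse KO_214. The range was 10.4 to 69.7 in control and 6.60 to 123 in Med23 CKO for 8 endothelial markers, 8.70 to 82.8 and 6.49 to 343 for 8 mural and fibroblast markers, 1159 to 5015 and 648 to 3100 for 7 oligodendrocyte markers, and 31.8 to 77.7 and 41.3 to 56.3 for 7 neuron markers. The 10 neural stem cell markers summed to between 1899 and 3868 FPKM in control and between 2083 and 3855 in Med23 CKO, and 12 proliferation markers to between 397 and 1094 and between 250 and 1451. In mean log2(FPKM + 1), all 11 microglia, 8 endothelial and 8 mural and fibroblast markers tested were higher in Med23 CKO. Their median log2 differences were 0.77, 0.49 and 0.65. On the same scale all 7 oligodendrocyte and 12 proliferation markers were lower (medians -0.73 and -0.47). The smallest difference among the proliferation markers was -0.00029. By the mean log2(FPKM + 1) of a list, only KO_214 lay above every control for microglia (4.79), endothelial (3.68) and mural and fibroblast markers (4.71). KO_117 and KO_218 lay inside or below the control range there. For oligodendrocyte markers only KO_117 (4.50) lay below every control. For proliferation markers KO_214 (3.19) lay below every control and KO_117 (6.61) above every control. In each list 0 markers passed limma at an unadjusted p under 0.05, and no marker was at 0 in every library. The part of these differences in makeup in the values below was not tested. In bulk RNA, fewer cells of a type and less RNA per cell cannot be told apart.

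Among these genes, Ube2a with Ube2b and Rnf20 with Rnf40 are close relatives, so it was first asked how far their RNA can be kept apart. Ube2a and Ube2b have coding sequences of 456 bases each, with 77.6% of bases identical and a longest identical run of 17 bases. Rnf20 (2919 coding bases) and Rnf40 (3003) were identical at 62.6% of aligned bases, with a longest run of 18. The most alike stretches of 90 coding bases without a gap are shown from the GENCODE M21 transcripts on GRCm38, 5′ to 3′ on the coding strand, with the bases that differ within each pair in capitals. The stretch of Ube2a lies in exons 5 to 6 on chromosome X (forward strand, 36882640 to 36883053, intron included) and that of Ube2b in exons 5 to 6 on chromosome 11 (reverse strand, 51986769 to 51988659). The stretch of Rnf20 lies in exons 19 to 20 on chromosome 4 (forward strand, 49655501 to 49655878) and that of Rnf40 in exons 19 to 20 on chromosome 7 (forward strand, 127600615 to 127602544), and both encode part of the RING finger, the domain that binds the conjugating enzyme.
Ube2a: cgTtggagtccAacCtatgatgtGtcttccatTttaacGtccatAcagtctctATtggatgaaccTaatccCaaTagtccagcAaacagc
Ube2b: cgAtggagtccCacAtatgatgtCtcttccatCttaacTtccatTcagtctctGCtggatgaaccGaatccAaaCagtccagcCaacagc
Rnf20: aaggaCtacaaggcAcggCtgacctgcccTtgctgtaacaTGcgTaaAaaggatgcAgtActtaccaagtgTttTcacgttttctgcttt
Rnf40: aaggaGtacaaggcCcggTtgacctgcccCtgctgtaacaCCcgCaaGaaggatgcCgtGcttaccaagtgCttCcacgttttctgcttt

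Even in these stretches the Ube2 pair differed at 13 bases and the Rnf pair at 12, and no identical run was longer than 18 bases in the whole coding sequences. The Rnf40 stretch also held more G and C (54.4%, against 45.6% for Rnf20). Of all 50-base words in the longest transcript, 0% occurred in another gene for Rnf20, Ube2a, Ube2b, Paf1, Ctr9 and Leo1, 0.52% for Rtf1 and 0.00867% for Cdc73. For Rnf40 (chromosome 7, 127588767 to 127604799) the share was 11.8%, with Gm44759 and with the antisense gene 1700120K04Rik (127603900 to 127604445), which lies within it. The antisense gene had between 0.398 and 1.84 FPKM, against between 15.2 and 27.8 for Rnf40, and reads of the shared stretch cannot be told apart without strand. For Wac the share was 5.37%, with the processed pseudogene Gm18943.

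Med23 itself was lower in every Med23 CKO library than in every control library. It reached 11.4, 10.3, 12.9 and 10.1 FPKM in the controls against 9.97, 9.27 and 8.12 in Med23 CKO, a log2 difference of -0.26 (SE, the standard error, 0.18; p = 0.0571 by a two-sided exact permutation test over the libraries). The highest Med23 CKO value (9.97, KO_117) was close to the lowest control value (10.1, WT_220). By limma the difference did not pass (unadjusted p = 0.175, adjusted p = 0.9999). With array weights, an alternative described below, it was -0.43 (limma, unadjusted p = 0.0205). Under these weights 6.27% of all genes were lower at an unadjusted p under 0.05. The FPKM values cover the whole gene, not the deleted exons alone. By its own qRT-PCR of Med23 in primary neurospheres, the study reported the deletion.

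The RNA of all 10 partners was present in control and Med23 CKO neurospheres, and for none of the 10 did the difference between the groups pass the test. In control, the means ran from 18.2 FPKM (Cdc73) to 48.7 FPKM (Ube2b), above the means of 64.2% to 86.7% of the 14151 genes tested. At a Benjamini-Hochberg adjusted p under 0.05 from limma, 0 of the 10 genes were called, as was 0% of all genes tested. At an unadjusted p under 0.05, 0 were higher and 0 lower, where 0.502% of all genes were higher and 0.996% lower (71 and 141 genes, and 102 and 123 after quantile normalization). The Med23 CKO values overlapped the control values for all 10, where the groups lay apart for 0.784% of all genes on the higher side and 1.53% on the lower side. Of the 10, 3 had a higher and 7 a lower mean in Med23 CKO, with a median log2 difference of -0.06, beside -0.03 over all genes tested. This median was -0.0081 without WT_116, -0.088 without WT_215, 0.0028 without KO_218 and -0.13 with array weights. By these weights limma gives less weight to more variable libraries, and their estimation stopped before it converged. Over all genes tested, the median was -0.023 without WT_116, -0.023 without WT_215, 0.0049 without KO_218 and -0.088 with array weights. It was -0.038 without KO_117. All log2 differences are those of mean log2(FPKM + 1), Med23 CKO minus control, with SE and interval from limma.

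**Figure D1:**
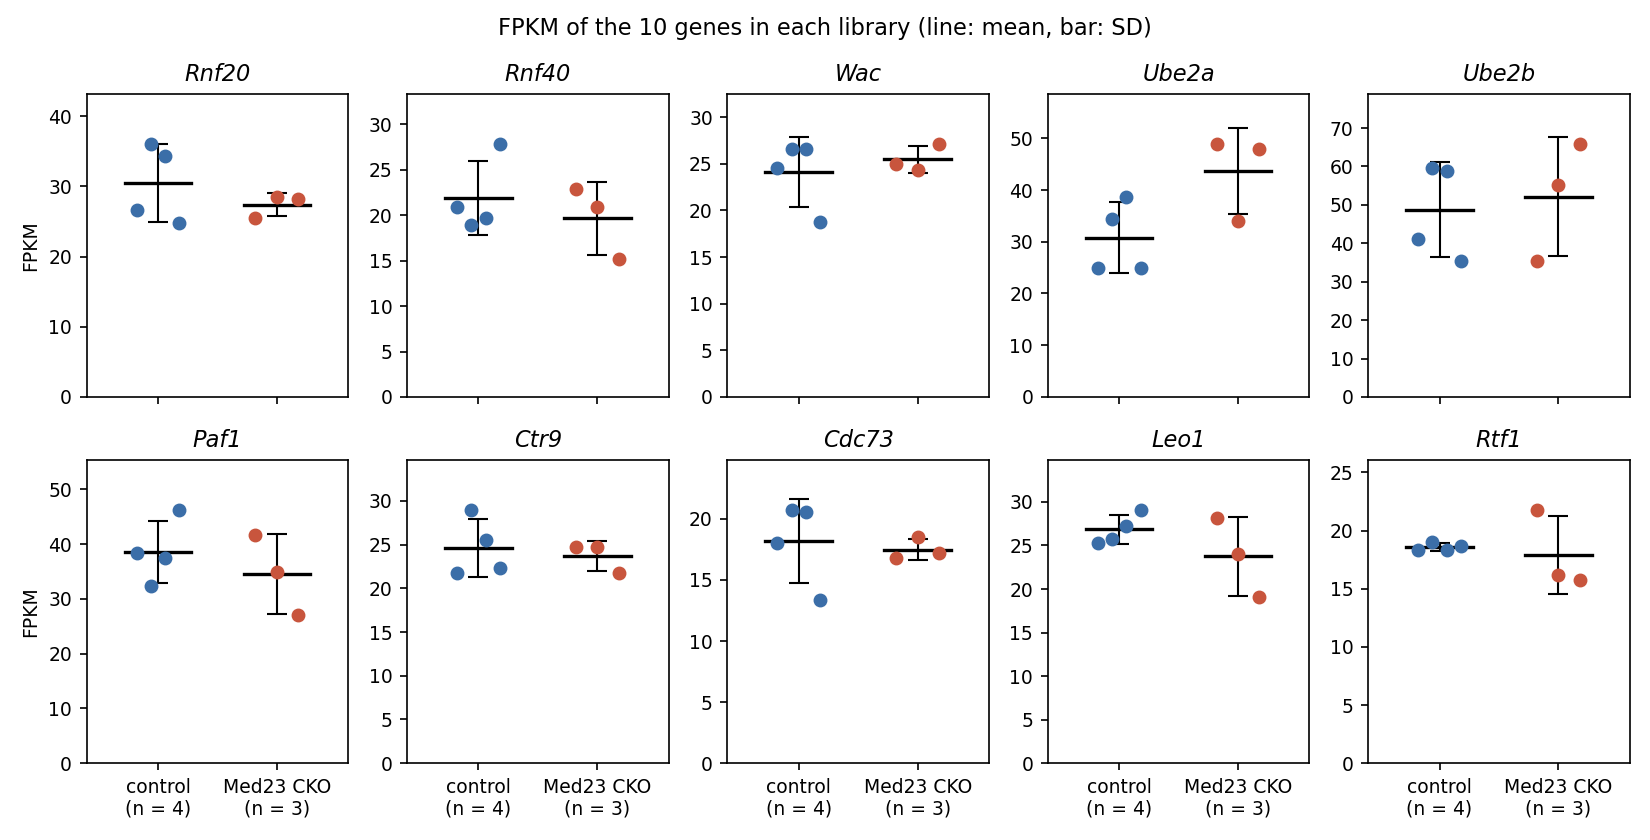
FPKM (vertical axis, from 0) of each of the 10 genes in the 4 control libraries (blue) and the 3 Med23 CKO libraries (red); the line is the mean and the bar the SD. The groups overlap in every panel, with the widest gap between means for Ube2a (30.7 and 43.6 FPKM).

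Of the ligase genes, Rnf20 measured 26.6, 36.0, 34.3 and 24.8 FPKM in the controls against 25.5, 28.5 and 28.2 in Med23 CKO. The 3 Med23 CKO values lay inside the span of the controls, which were split between a higher pair (WT_116 and WT_213) and a lower pair. Its log2 difference came to -0.13 (SE 0.19, 95% interval -0.56 to 0.30, exact permutation p = 0.429). It was -0.22 without WT_220 and -0.047 without WT_116. Rnf40, the partner in the heterodimer, measured 20.9, 18.9, 19.7 and 27.8 FPKM in the controls against 22.9, 20.9 and 15.2 in Med23 CKO. Here WT_220, the lowest control for Rnf20, was the highest of all libraries, and KO_218 was the lowest. The log2 difference was -0.15 (SE 0.22, interval -0.65 to 0.35, exact permutation p = 0.514), and 0.017 without KO_218. Wac, the adaptor that links the ligase to Pol II, measured 24.6, 26.6, 26.6 and 18.7 FPKM in the controls against 25.0, 24.3 and 27.1 in Med23 CKO, a log2 difference of 0.09 (SE 0.18, exact permutation p = 0.714). Without WT_220, which stood below the other 6 libraries, it was -0.024.

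Of the conjugating enzymes, Ube2a showed the largest difference among the 10 genes. It reached 25.0, 34.4, 38.6 and 25.0 FPKM in the controls against 48.9, 34.0 and 47.9 in Med23 CKO. Mice KO_117 and KO_218 were above every control, and KO_214 was below WT_116 and WT_213. The means were 30.7 ± 6.87 (SD, n = 4) and 43.6 ± 8.32 FPKM (SD, n = 3), a log2 difference of 0.50 (SE 0.23, 95% interval -0.04 to 1.03, exact permutation test, two-sided, p = 0.143). It did not pass over all genes (limma, adjusted p = 0.9999). Without KO_214 the log2 difference was 0.66 and without WT_213 it was 0.61, and in both cases the unadjusted p was under 0.05, as it was for 0.551% and 0.473% of all genes on the higher side. Ube2a is X-linked (chromosome X, 36873900 to 36884222). Xist, the RNA of the inactive X chromosome, looked up after the values of Ube2a were seen, had 91.3 FPKM in WT_220 and 111 FPKM in KO_218 and at most 0.565 FPKM elsewhere, and those libraries had 25.0 and 47.9 FPKM of Ube2a.

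Ube2b measured 41.2, 59.7, 58.7 and 35.3 FPKM in the controls against 35.3, 55.2 and 65.8 in Med23 CKO. The lowest library of each group had 35.3 FPKM, and the log2 difference was 0.08 (SE 0.28, 95% interval -0.58 to 0.75, exact permutation p = 0.8). Its sign turned without WT_220 (-0.06) or KO_218 (-0.10).

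The balance within each enzyme pair was compared as a ratio of FPKM, since FPKM is per length. The ratio of Ube2a to Ube2b was 0.605, 0.577, 0.657 and 0.709 in control and 1.38, 0.617 and 0.728 in Med23 CKO. Ube2b was the more abundant in 6 of 7 libraries, and KO_117 was the exception. The difference of the log2 ratio was 0.43 (exact permutation p = 0.143, 0.286 after Benjamini-Hochberg adjustment over the 2 ratios). It was 0.08 without KO_117 and 0.66 without KO_214. The ratio of Rnf20 to Rnf40 was 1.27, 1.90, 1.74 and 0.891 in control and 1.11, 1.36 and 1.86 in Med23 CKO. It spread 2.13-fold over the libraries, with high and low values in both groups and means of 1.45 and 1.44. The difference of the log2 ratio was 0.02 (exact permutation p = 0.971, adjusted 0.971).

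**Figure D2:**
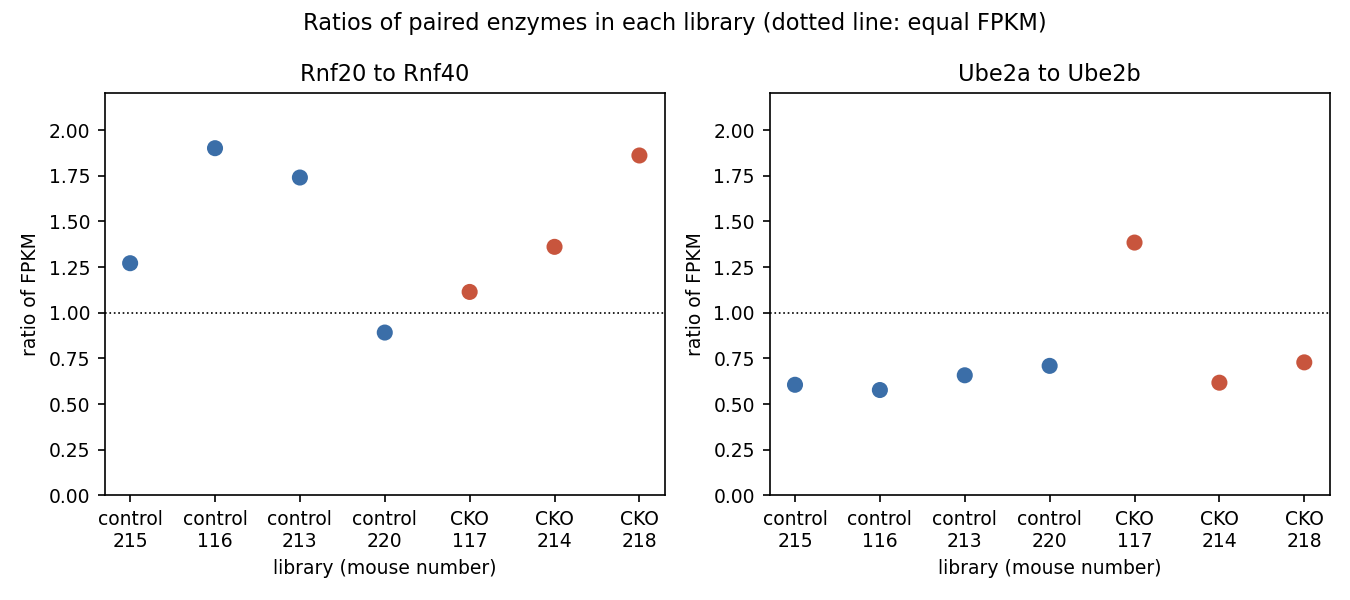
Ratio of FPKM (vertical axis, from 0) of Rnf20 to Rnf40 and of Ube2a to Ube2b in each library (control blue, Med23 CKO red); the dotted line marks equal FPKM. The Ube2 ratio sits between 0.577 and 0.728 in 6 libraries and at 1.38 in mouse KO_117, while the Rnf ratio runs from 0.891 to 1.90.

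The subunits of the PAF1 complex had a lower mean in Med23 CKO for all 5 genes, by small amounts that did not pass the test. Their log2 differences lay between -0.18 (Leo1) and -0.03 (Cdc73), with a median of -0.07. This median was -0.21 without KO_117, -0.0061 without KO_218 and -0.18 with array weights. Paf1, a core subunit, measured 38.4, 32.4, 37.4 and 46.2 FPKM in the controls against 41.7, 34.9 and 27.1 in Med23 CKO (log2 difference -0.17, SE 0.20, 95% interval -0.64 to 0.31, exact permutation p = 0.457). Leo1, which binds RNA and histones with Paf1, measured 25.3, 25.7, 27.2 and 29.0 FPKM in the controls against 28.1, 24.0 and 19.1 in Med23 CKO (log2 difference -0.18, SE 0.18, interval -0.60 to 0.23, exact permutation p = 0.229). For both, KO_117 lay among the controls and KO_218 was the lowest library. Without KO_218, Paf1 had a log2 difference of -0.01 and Leo1 of -0.04.

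Rtf1, whose histone modification domain stimulates ubiquitination by the Rnf20 and Rnf40 ligase, was the most even gene in control as deposited. It had 18.3, 19.0, 18.3 and 18.7 FPKM there, a mean of 18.6 ± 0.340 (SD, n = 4), and 21.7, 16.1 and 15.7 FPKM in Med23 CKO, a mean of 17.9 ± 3.36 (SD, n = 3). The Med23 CKO libraries thus stood on both sides of a narrow control range, KO_117 above it and the other two below. With the GC and length trend removed, as described below, the controls deviated from the mean of Rtf1 by -0.08 to 0.13. Those of Wac were then closer together (-0.05 to 0.04). KO_117 (0.25), KO_214 (-0.20) and KO_218 (-0.13) still lay outside the Rtf1 control range. Before this step, the log2 difference of Rtf1 was -0.07 (SE 0.17, exact permutation p = 0.571), and -0.21 without KO_117 and 0.012 without KO_218. Once KO_117 was left out, the groups lay apart for Leo1 and Rtf1, both lower, as they did for 12.2% of all genes on the lower side.

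Ctr9, the scaffold subunit, measured 21.7, 28.9, 25.6 and 22.3 FPKM in the controls against 24.7, 24.7 and 21.8 in Med23 CKO (log2 difference -0.05, SE 0.17, exact permutation p = 0.714). Cdc73, also called parafibromin, measured 18.1, 20.7, 20.6 and 13.4 FPKM in the controls against 16.8, 18.5 and 17.2 in Med23 CKO (log2 difference -0.03, SE 0.20, exact permutation p = 0.914). All Med23 CKO values of both genes lay inside the control range. The sign turned for Ctr9 without WT_116 (0.031) or KO_218 (0.012), and for Cdc73 without WT_116 (0.031) or WT_213 (0.028). Wdr61, a subunit of the complex that is not among the 10, measured 44.7, 61.7, 60.4 and 42.6 FPKM in the controls against 41.6, 52.4 and 58.3 in Med23 CKO (log2 difference -0.04, SE 0.21).

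**Figure D3:**
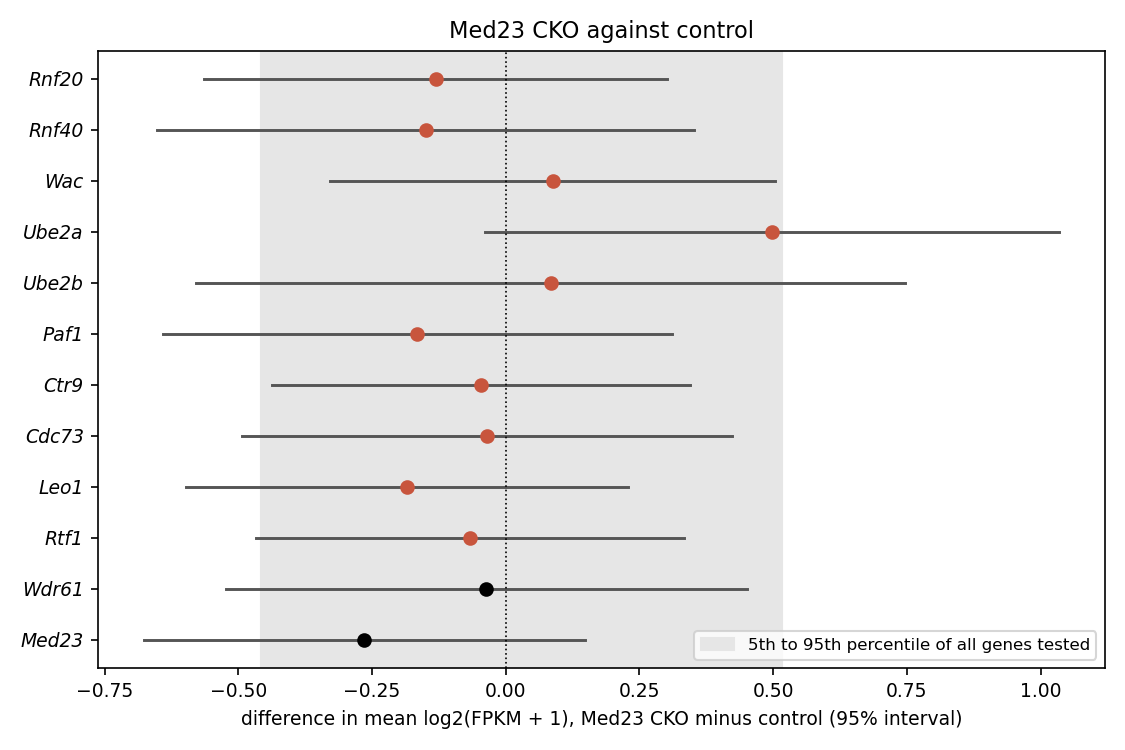
Difference in mean log2(FPKM + 1), Med23 CKO minus control (horizontal axis), with its 95% interval from limma, for the 10 genes (red) and for Wdr61 and Med23 (black); grey spans the 5th to 95th percentile of all genes tested, -0.46 to 0.52. Every interval crosses 0, and that of Ube2a, from -0.04 to 1.03, lies farthest to the right.

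Ordered by control mean, the genes were Ube2b, Paf1, Ube2a, Rnf20, Leo1, Ctr9, Wac, Rnf40, Rtf1 and Cdc73. No neighbour was above the next in all 4 control libraries, so this order is not fixed beyond the spread. Of the PAF1 complex genes among the 10, Paf1 was above Leo1, Ctr9, Rtf1 and Cdc73 in 7 of 7 libraries, by 1.12 to 3.45 times. The subunit Wdr61, not among the 10, had a higher control mean than Paf1 (52.3 and 38.6 FPKM). Rnf20 was above Rnf40 in 6 of 7 libraries.

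The range of log2(FPKM + 1) over the 7 libraries was between 0.40 (Ctr9) and 0.94 (Ube2a), with a median of 0.59. With the dependence on GC content and transcript length removed, as described below, the range was lowest for Wac (0.24) and 0.51 for Ctr9, and highest for Ube2a (1.19). The median range was 1.01 over all genes tested and 0.92 over the 3326 genes with a mean in the same span, from 17.9 to 50.2 FPKM. Over the same libraries, the mean log2(FPKM + 1) of the 5 PAF1 complex genes moved from 4.38 to 4.72. That of the 12 proliferation markers moved from 3.19 (KO_214) to 6.61 (KO_117), and that of the microglia markers from 1.39 to 4.79.

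Between control mice WT_220 and WT_116, the genes differed along the base composition of their transcripts. In this pair, log2(FPKM + 1) was higher in WT_220 for the 3 genes with over 50% G and C, namely Rnf40 (56.1%, difference 0.53), Paf1 (52.8%, 0.50) and Leo1 (50.6%, 0.17). It was lower for all 7 others, from -0.03 for Rtf1 (47.6%) to -0.59 for Cdc73 (36.8%) and -0.74 for Ube2b (42.2%). Over all genes with a known transcript, the median of the same difference was 0.24 for the 6631 with over 50% G and C and -0.39 for the 3456 with under 45%. With the dependence of each library on GC content and transcript length taken out, a step added after the data were seen, the difference between WT_220 and WT_116 was 0.19 for Rnf40, -0.11 for Cdc73 and -0.15 for Ube2b, and it was 0.50 for Paf1 and -0.47 for Rnf20. The value of Ube2a in KO_117 stood out further after this step, at 0.82 above the gene's mean in place of 0.46. In KO_218, the deviations of Rnf40, Paf1 and Leo1 were -0.42, -0.41 and -0.39 before this step and -0.04, -0.26 and -0.21 after it. For Rnf40, WT_215 (-0.15) was then the lowest library in place of KO_218. In the same mouse Ube2b went from 0.42 to 0.16, while Cdc73 went from -0.04 to -0.27. In Med23 CKO against control, the log2 differences after this step lay between -0.15 (Leo1) and 0.46 (Ube2a), with 0 of 10 genes at an unadjusted p under 0.05. Of the 10 genes, 6 had a narrower range over the 7 libraries after this step. WT_220 and WT_116 also differed in makeup, with oligodendrocyte markers summing to 1159 and 5015 FPKM. Their mean log2(FPKM + 1) of proliferation markers was 6.18 and 4.28. The parts of base composition and of makeup in the spread of single genes were not tested further.

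**Figure D4:**
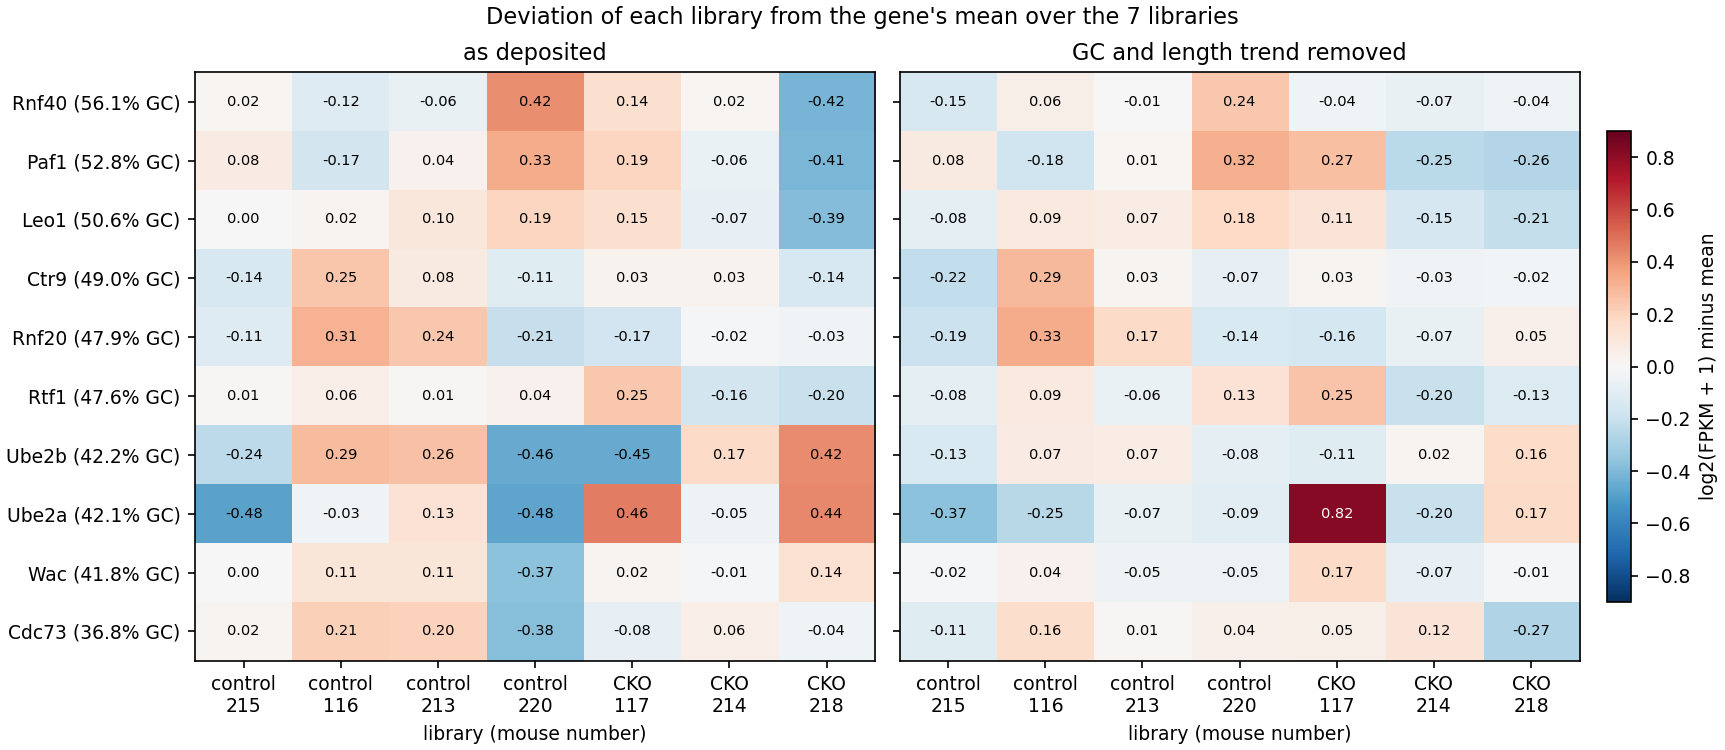
Deviation of log2(FPKM + 1) in each library from the gene's mean over the 7 libraries (colour and printed value), with genes ordered by the G and C content of the longest transcript, before (left) and after (right) taking out the dependence of each library on GC content and length. In control 220 the top rows are high and the lower rows low before removal (0.42 for Rnf40, -0.46 for Ube2b). After it Rnf40 is at 0.24 and Ube2b at -0.08, while Paf1 (0.33 before, 0.32 after) and Leo1 (0.19 and 0.18) hardly change.

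In the rest of the pathway no gene passed the test either. In 5 other lists, 56 genes were tested (Ell3 was under the filter and Supt4 was not analysed here). Of these, 13 had a higher and 43 a lower mean log2(FPKM + 1) in Med23 CKO. By limma, 0 of them were called at an adjusted or an unadjusted p under 0.05. Their median log2 difference was -0.08, beside -0.03 over all genes tested. At an unadjusted p under 0.05, array weights called 1 gene each for H2B deubiquitination and H3K79 methylation and 2 pausing and elongation factors, where they called 7.63% of all genes. Without KO_117, 1 gene for H2B deubiquitination was called, as were 5.40% of all genes. Of 10 genes for removal of ubiquitin from H2B, the median was -0.04 (-0.25 without KO_117, 0.045 without KO_218). The largest differences were those of the deubiquitinases Usp51 (log2 difference -0.63, SE 0.58) and Usp22 (-0.24, SE 0.24). Usp22 measured 60.6, 48.7, 47.5 and 56.9 FPKM in the controls against 65.7, 37.8 and 35.9 in Med23 CKO. Both groups again held high and low libraries.

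Of 14 COMPASS genes, which encode the H3K4 methyltransferases and their partners, 13 had a lower mean log2(FPKM + 1) in Med23 CKO. The median difference was -0.16. The methyltransferases Setd1a (-0.26, SE 0.38) and Kmt2b (-0.24, SE 0.38) were lowest. Setd1a measured 18.6, 9.90, 12.8 and 21.1 FPKM in the controls against 21.99, 10.4 and 8.09 in Med23 CKO. The median of the list was -0.43 without KO_117, 0.03 without KO_218 and -0.45 with array weights. The mean log2(FPKM + 1) of the COMPASS genes was 4.51, 3.93, 4.07 and 4.51 in control and 4.66, 3.91 and 3.77 in Med23 CKO, and that of the proliferation markers 6.09, 4.28, 5.06 and 6.18, and 6.61, 3.19 and 5.19. The same 3 libraries, KO_117, WT_220 and WT_215, were the highest in both lists. They were also the highest for H2B deubiquitination, H3K79 methylation, pausing and elongation factors and the neural stem cell markers. For P-TEFb and the super elongation complex they were not, as KO_214 (4.04) lay above WT_215 (4.02) and WT_220 (3.98). The part of proliferation in these values was not tested. Of 5 genes for H3K79 methylation the median was -0.07, with both signs among the alternatives (-0.25 without KO_117, 0.075 without KO_214, 0.021 with the GC and length trend removed, -0.33 with array weights). Its methyltransferase Dot1l was at -0.30 (SE 0.33) and Mllt3 at -0.08.

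Of 14 genes of P-TEFb, the kinase that releases paused Pol II, and of the super elongation complex, the median log2 difference was -0.02. It was -0.13 without KO_117, 0.11 without KO_218, 0.0095 with median centring and -0.23 with array weights. The elongation factor Ell2 was at 0.55 (SE 0.68), with 6.80, 17.5, 13.2 and 3.52 FPKM in the controls against 4.92, 33.3 and 13.5 in Med23 CKO. Its highest value was in KO_214, the library with the most RNA of microglia and mural cell markers. Larp7, which holds P-TEFb inactive in its small nuclear RNA complex, was at -0.18 (SE 0.33). Of 13 pausing and elongation factors the median was -0.12 (-0.30 without KO_117, -0.00063 without KO_218), with Tcea2 at -0.44 (SE 0.25) and the histone chaperone subunit Ssrp1 at -0.25 (SE 0.40). Tcea2 measured 8.28, 6.80, 8.22 and 12.01 FPKM in the controls against 7.81, 6.03 and 4.82 in Med23 CKO, so KO_117 lay inside the control range and the other two below it.

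**Figure D5:**
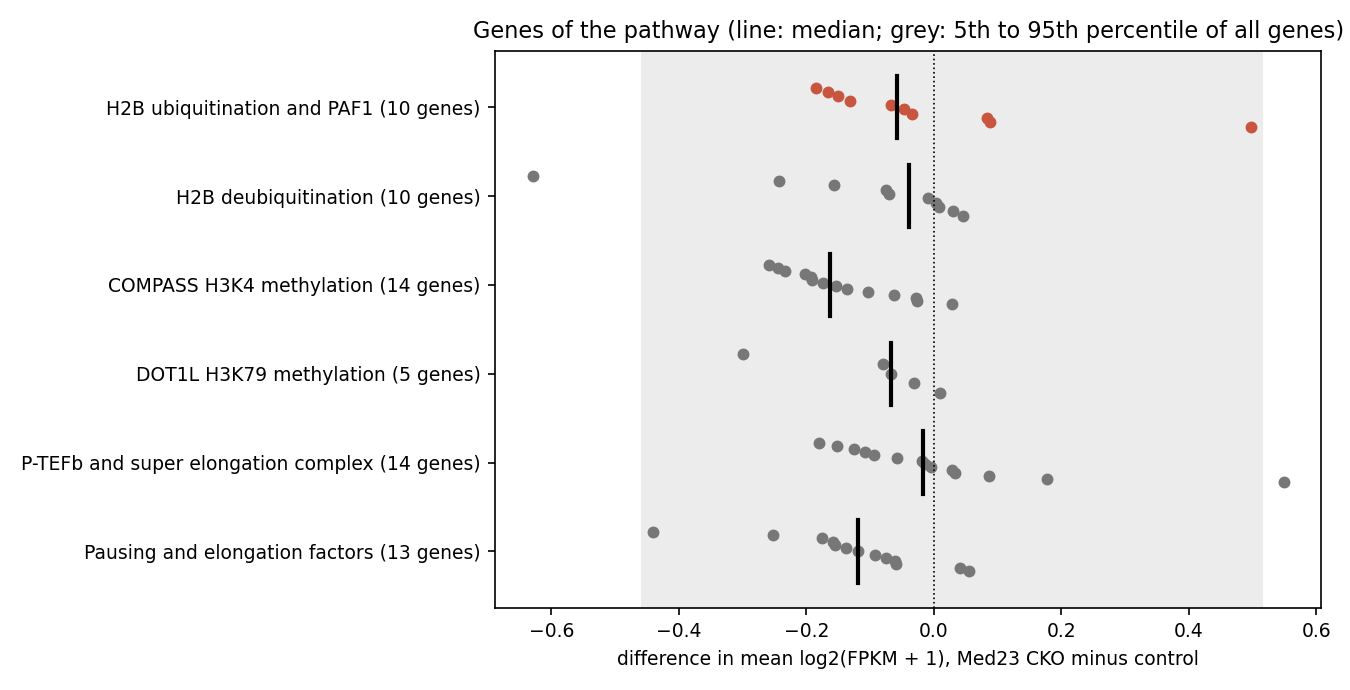
Difference in mean log2(FPKM + 1), Med23 CKO minus control (horizontal axis), for each tested gene of the 10 (red) and of the 5 other lists (grey points); the black line is the median of a list and the grey band the 5th to 95th percentile of all genes tested. Of the points, those of Usp51 (-0.63) and Ell2 (0.55) lie outside the band.

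The genes most like the ligase and the complex over the 7 libraries were found by the root mean square difference of deviations from the mean in log2(FPKM + 1). Nearest to the mean of Rnf20 and Rnf40 were Clpp (0.0469), Lsg1 (0.0482) and Emc6 (0.0485), where the pattern itself spanned 0.33. Nearest to the mean of the 5 PAF1 complex genes were 9430016H08Rik (0.0393), Gon4l (0.0424) and Hars (0.0450), where the pattern spanned 0.34.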

How the data were processed

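Adapter-trimmed reads had been mapped by the authors with Tophat (mm10, default settings), and Cuffdiff gave the FPKM values. They deposited FPKM per gene and library, with group means and the Cuffdiff comparison (fold change, statistic, p and q), which were not used here. No counts were used. Low FPKM values fell on no common steps between libraries (the fullest 0.05-log2 bin held at most 3.72% of low genes over 21 pairs), so the depth is unknown and 7 libraries limit the precision.

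Columns were matched to mice by title. The 14151 of 24346 genes whose mean FPKM reached 0.5 were analysed as log2(FPKM + 1) with limma 3.58.1 in R 4.3.3 (lmFit, eBayes with trend, Benjamini-Hochberg over all genes tested). Single values were tested by exact permutation in Python 3.11.15, where the smallest p is 0.0286. The fit was tested on simulated data in which 200 genes were changed by 2 in log2. At an adjusted p under 0.05 from limma, 138 of these 200 were called, and 4 unchanged genes, so changes of this size can be missed.

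The genes and lists were chosen with earlier results of these data known. Named were the 10 genes, Med23, in each list the genes at an unadjusted p under 0.05 or else the 2 with the largest difference, and the 3 nearest patterns. Coordinates and transcripts are from GENCODE M21 on GRCm38 (mm10), whose longest transcripts gave GC content and length for 96.4% of genes tested. The stretches were aligned with Biopython 1.88. Alternatives were another pseudocount, filter, scaling, variance model, weights, and each library left out, and, added after seeing the data, removal of a spline trend with GC content and length.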

Additional observations from a re-analysis of the deposited data

How the results depend on the processing

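At an unadjusted p under 0.05, limma put 71 of all genes higher and 141 lower. These counts were 102 and 123 with quantile normalization, 99 and 119 with median centring, 193 and 887 with array weights in limma (whose estimation stopped before it converged), 124 and 155 with the GC and length trend removed, and 140 higher without a filter. With each library left out in turn they ran from 45 (without WT_215) to 354 (without KO_117) and from 70 (without KO_218) to 410 (without KO_117), with 139 higher without KO_218, and 79 lower without WT_215 and 76 without WT_220. The count at an adjusted p under 0.05 ran from 0 to 1, with 1 gene without KO_214 and 1 without KO_218. Of the 10 genes, array weights put 1 (Ube2a) higher and 2 (Leo1 and Paf1) lower at an unadjusted p under 0.05, as 1.36% and 6.27% of all genes. With libraries left out, 0 to 1 were higher, 0 to 1 had groups apart on the higher side (Ube2a without KO_214, where 2.51% of all genes lay apart) and 0 to 2 on the lower side (Leo1 and Rtf1 without KO_117, where 12.2% did). At an adjusted p under 0.05, 0 of the 10 were called in any alternative, the smallest adjusted p being 0.594 (array weights).

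With libraries left out, log2 differences of both signs were seen for Rnf40 (-0.26 to 0.017), Wac (-0.024 to 0.14), Ube2b (-0.10 to 0.34), Ctr9 (-0.10 to 0.031), Cdc73 (-0.17 to 0.031) and Rtf1 (-0.21 to 0.012), and for the log2 ratio of Rnf20 to Rnf40 (-0.19 to 0.19), which was -0.020 with the GC and length trend removed. Rnf20, Ube2a, Paf1, Leo1 and Med23 kept their sign in all 16 alternatives, with Ube2a between 0.41 and 0.66. No paired analysis was made, because the sample labels used here give no litter by which control and Med23 CKO mice could be paired. No interval that needs read depth could be given.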
